A study of Homo sapiens with 6 samples.

Results

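The 8 genes described here encode the proteins that bring glucose into the cell, trap it there and set the pace of its breakdown. They are the hexokinase genes HK1, HK2 and HKDC1, the PFKFB genes PFKFB2, PFKFB3 and PFKFB4, and the glucose transporter genes SLC2A1 and SLC2A3. They were found by matching Ensembl identifiers to symbols in GENCODE 44, which gave 8 of the 58735 rows of the count table. All 8 passed the filter on low counts, HKDC1 only through its counts in EZA libraries. The set was chosen by its values in the contrast of EZA with DMSO in these same libraries. That difference is therefore given as a description, without p-values for these genes, and their calls in the fit over all genes support nothing.

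Cultures of RKO, a human colorectal carcinoma cell line, were compared by RNA sequencing of poly(A) RNA. The cells had received EZA in 3 libraries and DMSO, the solvent, in 3 libraries, and both groups are otherwise labelled alike. EZA is an abbreviation that the labels leave unexplained, and no dose or duration is given. The study calls the replicates biological without saying that they were separate cultures, and p-values then reflect only how far these libraries vary.

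Glucose enters most cells through facilitative transporters of the SLC2A (GLUT) family, and hexokinases phosphorylate it so that it cannot leave. Phosphofructokinase then commits it to glycolysis. The PFKFB enzymes both make and remove a sugar phosphate that activates phosphofructokinase, with a balance that differs between isozymes. Tumour cells often carry high levels of GLUT1 (SLC2A1) and HK2, and several of these genes are known targets of the hypoxia-inducible factors.

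Libraries held 14070611 to 18840954 counts. EZA replicate 3 stood apart from the others. Mitochondrial genes took 0.203% of its counts, against 3.68% to 5.02% in the other 5 libraries. Its log2 CPM (the usual count rate, scaled to library size by TMM) correlated across genes at 0.965 with the mean of the other EZA libraries, against 0.985 to 0.995 for each of the other 5 with its own group. Fold changes also followed the GC content of the transcript, with a median log2 fold change of -0.31 in genes of at most 40% GC and of 0.44 in genes above 60%. Of the colon epithelial markers, EPCAM, KRT8, KRT18 and CDX2 had at least 10 counts in all 6 libraries, whereas CDH1, KRT20, VIL1 and LGALS4 had at most 1 count in any library. The marker lists of leukocytes, endothelium, fibroblasts and hepatocytes each summed to at most 0.707 CPM in EZA libraries and at most 0.320 CPM in DMSO libraries.

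HKDC1 and HK2 are shown by sequence, because within the hexokinases HKDC1 had the largest difference between the groups and HK2 did not separate them. The table of RefSeq promoters (GRCh38.p14) held 6 of the 8 genes, without PFKFB2 and SLC2A3. Each line gives the 250 bases before an annotated start, 5′ to 3′, on the plus strand. Both windows lie outside annotated exons, that of HK2 inside the gene. The window before the first HK2 start overlaps annotated exons by 111 bases and is not printed, and it held 2 matches of the hypoxia response core and no E-box. Capitals mark matches to 4 motifs searched on both strands, namely the hypoxia response core ACGTG, the palindromic E-box CACGTG, which contains that core, the ATF4 composite motif TGATGNAA and the antioxidant response motif TGACNNNGC.
HKDC1, chr10:69220082-69220331: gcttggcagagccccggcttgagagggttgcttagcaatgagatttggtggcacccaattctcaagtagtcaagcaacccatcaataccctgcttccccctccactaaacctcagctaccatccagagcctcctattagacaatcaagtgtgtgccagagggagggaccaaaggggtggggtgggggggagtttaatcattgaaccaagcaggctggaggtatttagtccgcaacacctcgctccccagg
HK2, second listed start, chr2:74834920-74835169: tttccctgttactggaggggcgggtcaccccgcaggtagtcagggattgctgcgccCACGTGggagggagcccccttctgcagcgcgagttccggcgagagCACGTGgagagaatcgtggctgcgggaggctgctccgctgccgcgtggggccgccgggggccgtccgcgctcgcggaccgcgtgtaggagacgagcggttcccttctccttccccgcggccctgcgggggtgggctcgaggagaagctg
The HKDC1 window held none of the 4 motifs. The printed HK2 window held 2 copies of the E-box, starting 194 and 149 bases before the start, and the 4 matches of the hypoxia response core lie within them. Among the windows not printed, some of HK1 held an ATF4 or an antioxidant match. A window of PFKFB3 held an E-box with the core inside it. The rest, apart from the first of HK2, held none. Among 35116 promoter windows of the same length, 18.5% held the hypoxia response core, 6.34% the E-box, 3.14% the ATF4 motif and 10.9% the antioxidant motif. Such a match is a run of letters and not a measured binding site.

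HKDC1, the fifth vertebrate hexokinase, was detected in every EZA library and nearly silent in DMSO-treated cells. It lies on chromosome 10 from 69220332 to 69267552 (ENSG00000156510, GRCh38, plus strand). In bulk RNA, more transcript per cell and more cells with the transcript cannot be told apart, for HKDC1 and for all genes below. HKDC1 had 110, 156 and 134 counts in EZA replicates 1 to 3, against 0, 5 and 3 counts in DMSO replicates 1 to 3. The lowest EZA library thus held more HKDC1 counts than the 3 DMSO libraries together, which had 8. After TMM scaling that was 8.36 ± 1.26 CPM in EZA and 0.170 ± 0.161 CPM in DMSO (SD, n = 3 each). The ratio of summed counts per total count was 47.6, with an exact 95% interval of 23.9 to 111 that covers counting error only. This interval describes values that chose the gene and tests nothing. The fitted log2 fold change was 5.56 ± 0.47 (SE), and 2 of the 13503 genes tested had a higher one. Leaving out DMSO replicate 2 moved it to 6.36 and leaving out DMSO replicate 1 to 4.99, since these few counts set the denominator.

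A second annotated gene at the HKDC1 locus also had higher counts in EZA, and it too passed the filter only through EZA libraries. ENSG00000229261, a long noncoding RNA on the opposite strand that overlaps HKDC1, had 11, 17 and 12 counts in EZA replicates 1 to 3 and 1, 0 and 1 in DMSO replicates 1 to 3, with a log2 fold change of 4.06 ± 0.66 (SE). The libraries do not mark strand, so reads of the HKDC1 transcript and of this antisense gene cannot be told apart. HK1 starts 2431 bases downstream of HKDC1 on the same strand, and its longest transcript shares no exact run of 50 bases with another gene. Of the other protein-coding neighbours within 250 kb, SUPV3L1 had a log2 fold change of 0.16 ± 0.12 (SE), VPS26A -0.08 ± 0.15 and TSPAN15 -0.20 ± 0.19, and in edgeR's quasi-likelihood test no neighbour of HKDC1 with enough counts was called. The largest difference among them was that of DDX21, a nucleolar helicase, at -0.40 ± 0.13 (edgeR adjusted p = 0.0704).

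HK1 (chromosome 10, 69269984 to 69401884), the broadly expressed hexokinase, had 295, 245 and 327 CPM in EZA replicates 1 to 3, against 268, 283 and 243 CPM in DMSO replicates 1 to 3. The groups overlapped, with a log2 fold change of 0.13 ± 0.14 (SE). HK2 (chromosome 2, 74834127 to 74893359), the isozyme of muscle and of many tumours, had 244, 181 and 408 CPM in EZA replicates 1 to 3, against 283, 297 and 274 CPM in DMSO replicates 1 to 3. EZA replicates 1 and 2 lay below every DMSO library and EZA replicate 3 above every one. The fitted log2 fold change of HK2 was -0.04 ± 0.26 (SE) with all 6 libraries and -0.42 ± 0.11 without EZA replicate 3. It was 0.20 without EZA replicate 2, 0.05 without EZA replicate 1 and 0.01 without DMSO replicate 2, so that its sign turned with 1 library. The part of this library's other differences in the HK2 value was not tested. The longest HK2 transcript shares 23.5% of its length in exact runs of at least 50 bases with the pseudogene HK2P1, which had 12 counts in all 6 libraries together.

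**Figure D1:**
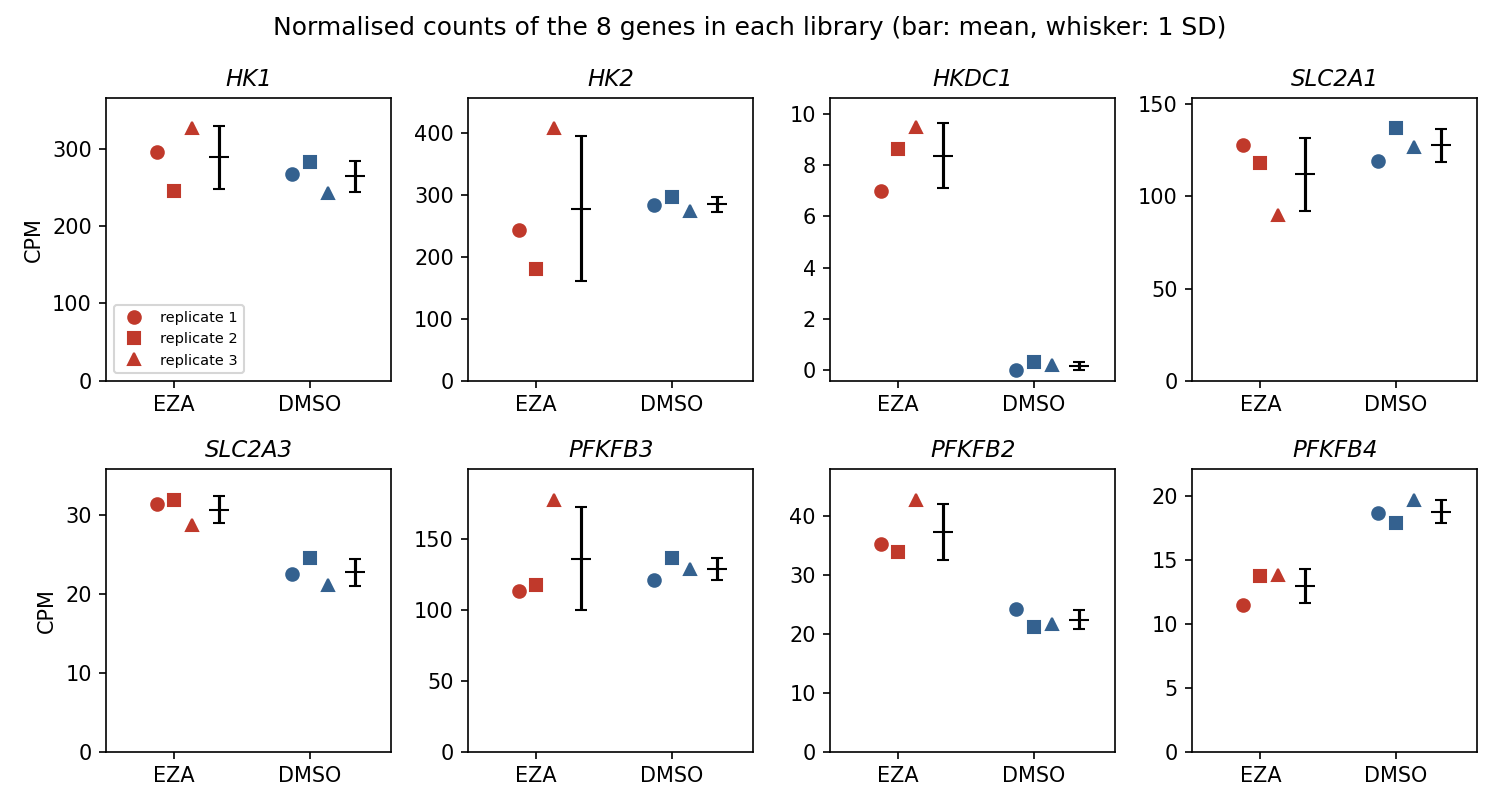
Each panel plots the TMM-scaled CPM of 1 gene on the vertical axis, with EZA libraries left and DMSO libraries right, a symbol per replicate and a bar with whiskers for the mean and 1 SD (n = 3 each). HKDC1 lies between 6.98 and 9.47 CPM in EZA and at most at 0.319 CPM in DMSO, while EZA replicate 3 is the highest library for HK2 and PFKFB3 and the lowest for SLC2A1.

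SLC2A3, which encodes the high-affinity transporter GLUT3, was higher in every EZA library than in every DMSO library, whereas SLC2A1 was not. SLC2A3 (chromosome 12, 7919230 to 8019007) had 31.4, 32.0 and 28.7 CPM in EZA replicates 1 to 3, against 22.6, 24.5 and 21.1 CPM in DMSO replicates 1 to 3. Its log2 fold change was 0.43 ± 0.13 (SE), or 1.35-fold. SLC2A1 (chromosome 1, 42925353 to 42958893), the basal transporter GLUT1, had 128, 118 and 89.7 CPM in EZA replicates 1 to 3, against 119, 137 and 127 CPM in DMSO replicates 1 to 3. EZA replicates 1 and 2 lay within or just below the DMSO range, and EZA replicate 3 lay clearly below it. The log2 fold change of SLC2A1 was -0.19 ± 0.15 (SE) with all libraries and -0.05 ± 0.11 without EZA replicate 3. The longest SLC2A1 transcript shares 14.7% of its length in exact runs of at least 50 bases with ENSG00000288955. That long noncoding RNA overlaps SLC2A1 on the opposite strand and has no row of counts. Without strand information, reads from the shared stretch cannot be told apart. SLC2A3 shares 41.2% of its longest transcript in exact runs of at least 50 bases with SLC2A14, which was listed at 0 counts in all 6 libraries. No source used here says how the counting treated reads that match both genes, and the SLC2A3 level is uncertain to that extent.

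The PFKFB isozymes differed in opposite directions. PFKFB2, the isozyme first described in heart, was higher in every EZA library, and PFKFB4, found in testis and many tumours, was lower in every EZA library. PFKFB3, the isozyme whose balance lies most towards the kinase, overlapped. PFKFB2 (chromosome 1, 207034366 to 207081024) had 35.3, 34.0 and 42.8 CPM in EZA replicates 1 to 3, against 24.3, 21.3 and 21.8 CPM in DMSO replicates 1 to 3. Its log2 fold change was 0.73 ± 0.15 (SE), or 1.66-fold. PFKFB4 (chromosome 3, 48517684 to 48562015) had 11.4, 13.7 and 13.8 CPM in EZA replicates 1 to 3, against 18.6, 17.9 and 19.7 CPM in DMSO replicates 1 to 3. Its log2 fold change was -0.53 ± 0.15 (SE), or 0.692-fold. These differences ran against the GC trend of the libraries. PFKFB2 has a GC content of 43.4%, and the median log2 fold change of genes with 40% to 45% was -0.19, while PFKFB4 has 56.3%, where genes of 55% to 60% had a median of 0.22. After removal of the trend with GC content and length, PFKFB2 was at 0.93 and PFKFB4 at -0.73 on the log2 scale. PFKFB2 overlaps YOD1 on the opposite strand, and YOD1 had 319, 327 and 200 counts in EZA replicates 1 to 3 and 368, 292 and 383 in DMSO replicates 1 to 3.

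PFKFB3 (chromosome 10, 6144934 to 6254644) had 113, 117 and 178 CPM in EZA replicates 1 to 3, against 121, 137 and 129 CPM in DMSO replicates 1 to 3. As with HK2, EZA replicates 1 and 2 lay below the DMSO libraries and EZA replicate 3 above them. The log2 fold change of PFKFB3 was 0.08 ± 0.18 (SE) with all libraries, -0.16 ± 0.11 without EZA replicate 3 and -0.08 after removal of the trend, so its direction depended on these choices.

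**Figure D2:**
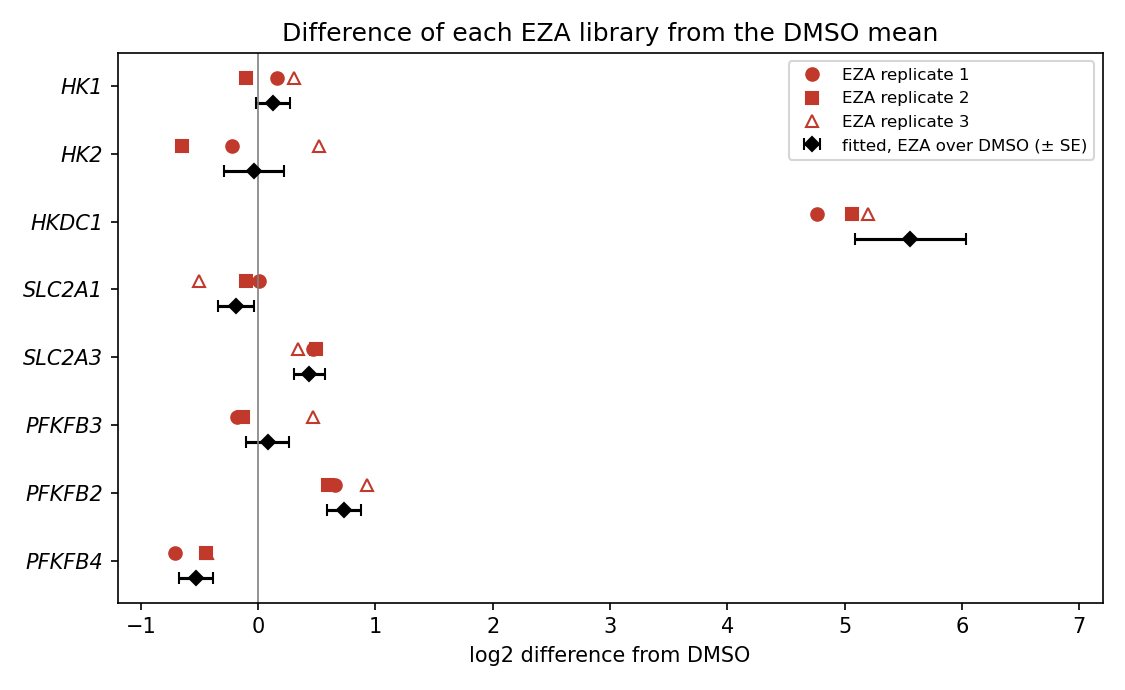
The horizontal axis is the log2 difference from DMSO, with red symbols for each EZA library against the DMSO mean (log2 CPM, prior count 2) and black diamonds for the fitted log2 fold change with its SE. HKDC1 lies at 4.77 to 5.20 by library and at 5.56 in the fit, because the prior count draws low values together, and EZA replicate 3 lies on the other side of 0 from EZA replicates 1 and 2 for HK2 and PFKFB3.

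In the edgeR quasi-likelihood test over 13503 genes, 17.7% of genes had a Benjamini-Hochberg adjusted p below 0.05, and 3 of the 8 genes were among them. HKDC1 and PFKFB2 were called higher, as were 9.89% of all genes, and PFKFB4 was called lower, as were 7.82%. The CPM of the groups did not overlap in 4 of the 8, namely HKDC1, PFKFB2, PFKFB4 and SLC2A3, and in 42.7% of all genes tested. Nothing is read from these shares, because the same difference chose the genes. The median log2 fold change was 0.10 over the 8 genes and -0.01 over all genes tested. The 3 became 2 without EZA replicate 1 or 2, 5 without EZA replicate 3, where HK2 and SLC2A3 were added, and 1 when a DMSO library was left out. With EZA replicate 3 left out and the trend removed, 7 of the 8 were called, all but HK1. Of all genes, 1336 were called higher and 1056 lower. Scaling by library size alone gave 1059 higher calls and 1270 lower ones. The total of 2392 calls became 1574, 1469 and 5289 without EZA replicate 1, 2 or 3, and 220, 787 and 254 without DMSO replicate 1, 2 or 3.

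Levels can be set side by side between genes only per transcript length, for which the deposited FPKM (fragments per kilobase of transcript, scaled by a factor per library) were used. In EZA-treated cells the order of mean levels was HK1 with 45.4 ± 5.92 FPKM, HK2 with 45.2 ± 18.6, SLC2A1 with 23.5 ± 4.27, PFKFB3 with 22 ± 5.65, SLC2A3 with 4.93 ± 0.329, PFKFB2 with 3.62 ± 0.430, PFKFB4 with 2.10 ± 0.224 and HKDC1 with 1.94 ± 0.292 (SD, n = 3). In DMSO-treated cells it was HK2 with 46.1 ± 2.12 FPKM, HK1 with 41.2 ± 3.35, SLC2A1 with 26.5 ± 1.95, PFKFB3 with 20.7 ± 1.32, SLC2A3 with 3.62 ± 0.294, PFKFB4 with 3.01 ± 0.129, PFKFB2 with 2.16 ± 0.157 and HKDC1 with 0.0393 ± 0.0372 (SD, n = 3). Neighbours whose replicate ranges overlapped were HK1 and HK2 in both groups, and SLC2A1 and PFKFB3 as well as PFKFB4 and HKDC1 in EZA alone. HK1, HK2, SLC2A1 and PFKFB3 thus made up the upper end of the order in both groups, and PFKFB2 and PFKFB4 changed places.

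Within each family, the genes of lower level took different shares of the summed FPKM in the 2 groups. HKDC1 made up 2.18% ± 0.587 of hexokinase FPKM in EZA and 0.0445% ± 0.0407 in DMSO (SD, n = 3 each), so that HK1 and HK2 carried nearly all of it in both groups. PFKFB4 was below PFKFB2 in every EZA library and above it in every DMSO library, with a ratio of PFKFB4 to PFKFB2 of 0.541, 0.673 and 0.537 in EZA replicates 1 to 3, against 1.28, 1.40 and 1.51 in DMSO replicates 1 to 3. PFKFB3 nevertheless held most of the PFKFB signal, at 79.0% ± 2.46 in EZA and 79.9% ± 1.63 in DMSO. SLC2A3 made up 17.6% ± 1.95 of the FPKM of both transporters in EZA and 12% ± 0.692 in DMSO, without overlap between the groups. The summed hexokinase level was 87.5, 71.1 and 119 FPKM in EZA replicates 1 to 3, against 87.5, 92.7 and 81.8 FPKM in DMSO replicates 1 to 3.

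**Figure D3:**
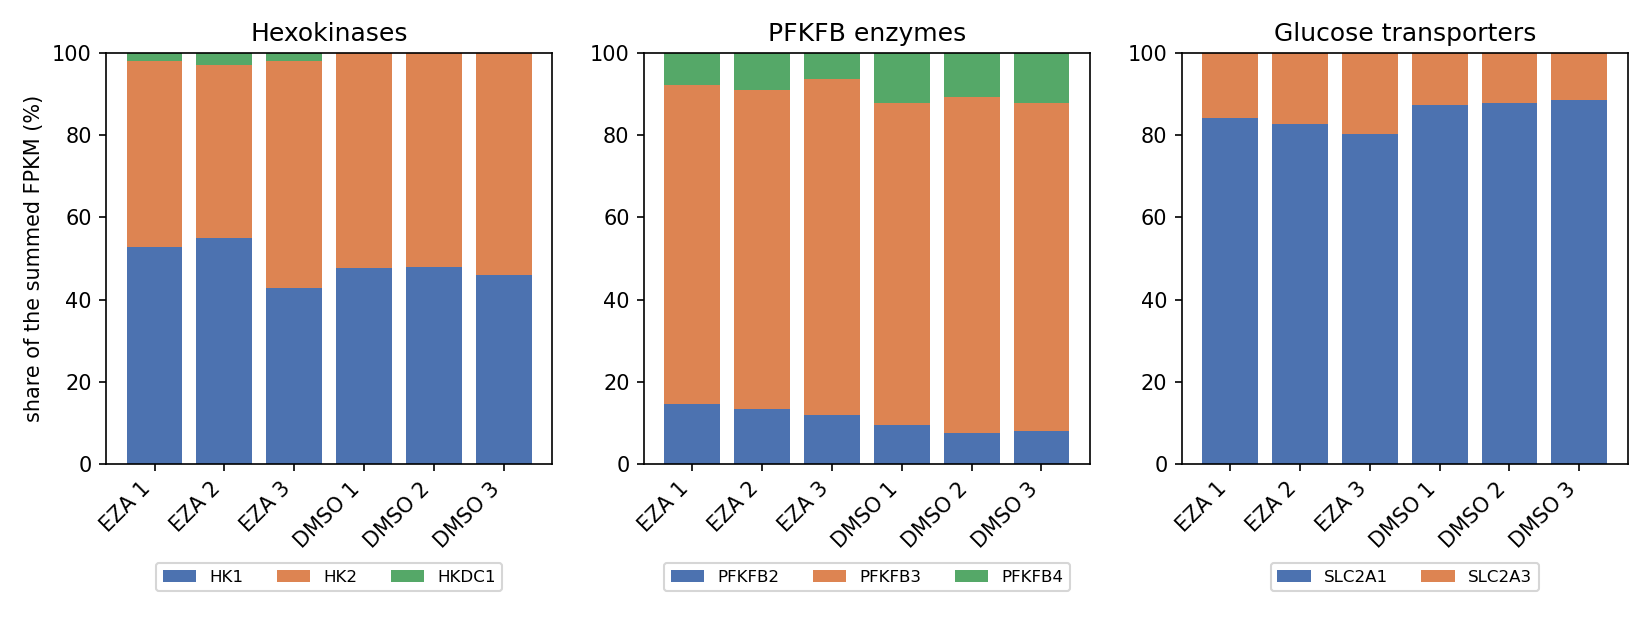
Stacked bars give the percentage of each family's summed FPKM held by each gene, 1 bar per library with EZA left of DMSO. The green HKDC1 segment is visible only in the EZA bars, the PFKFB2 segment is taller than that of PFKFB4 in EZA and shorter in DMSO, and SLC2A3 holds 15.9% to 19.7% in EZA against 11.3% to 12.7% in DMSO.

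The genes most like each of the 8 were sought among 8981 protein-coding genes with at least 10 CPM, by the root mean square distance between log2 CPM profiles centred on their means over the 6 libraries. HKDC1 was closest to CHAC1, a glutathione-degrading enzyme, at a distance of 0.50 with a Pearson r of 0.98, and next to SLC7A11, the cystine transporter subunit, at 0.75 with an r of 0.98. For HK2 they were RRBP1 at 0.06 and LRP6 at 0.07, and for HK1 GNL3L and TRAK1, both at 0.04. PFKFB2 had GSR, glutathione reductase, at 0.06 and DOK4 at 0.07, PFKFB3 had CHST14 and HBEGF, and PFKFB4 had TTF1 and NET1. SLC2A1 was nearest to MRPS2 and ZNF281, and SLC2A3 to TLCD3A and WDSUB1. Those of PFKFB3, PFKFB4, SLC2A1 and SLC2A3 lay at 0.0293 to 0.0485. All profiles come from the same 6 libraries in 2 groups, so high correlations are common, and the likeness is a description.

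Other genes of the same families included 2 transporter genes that rose. Of 20 listed genes, 9 had enough counts, and the 2 made up 22.2% of these, near the 17.7% of all genes tested, with a median log2 fold change of 0.26. SLC2A8, an intracellular transporter, rose to 42.7 ± 3.59 CPM in EZA, against 29.2 ± 1.62 CPM in DMSO (SD, n = 3 each; log2 fold change 0.55 ± 0.13, edgeR adjusted p = 0.0265). SLC2A10, encoding GLUT10, rose to 40.2 ± 8.29 CPM in EZA, against 25.8 ± 2.25 CPM in DMSO (0.64 ± 0.17, adjusted p = 0.0361). With the GC and length trend removed both calls were lost, and SLC2A8 was at 0.11 and SLC2A10 at 0.63. SLC2A10 also lost it with scaling by library size alone, at 0.60. SLC2A11 and SLC2A12 had log2 fold changes of 0.87 ± 0.26 and 0.84 ± 0.39 (edgeR adjusted p = 0.0507 and 0.157), and SLC2A13, a myo-inositol transporter, 0.26 ± 0.21 (adjusted p = 0.406). SLC2A6 and SLC2A4 were at 0.13 ± 0.12 and -0.14 ± 0.44 (edgeR adjusted p = 0.477 and 0.853). ADPGK, which phosphorylates glucose with ADP, was at -0.20 ± 0.22 and TIGAR, a phosphatase that opposes PFKFB kinase activity, at -0.13 ± 0.26 (adjusted p = 0.543 and 0.752). HK3, SLC2A2 and SLC2A7 had 0 counts in all libraries, which allows up to 0.0314 CPM over the summed counts of the 6 libraries. SLC2A14 also had 0 counts. How reads that it shares with SLC2A3 were counted is not known, so this bound does not cover SLC2A14. The 2 calls became 4 without EZA replicate 3, 1 without EZA replicate 1 and 0 without DMSO replicate 1, 2 or 3, where 3 or 4 genes had an unadjusted p below 0.05.

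Between glucose 6-phosphate and pyruvate, PFKL and ENO2 rose. They were 2 of 15 tested genes of the glycolytic chain (13.3%, near the 17.7% of all genes), and the median log2 fold change was 0.21. PFKL, the liver-type phosphofructokinase, rose to 162 ± 12 CPM in EZA, against 101 ± 15.0 CPM in DMSO (SD, n = 3 each; log2 fold change 0.68 ± 0.14, edgeR adjusted p = 0.0165). ENO2, the neuronal enolase, rose to 218 ± 14.5 CPM in EZA, against 162 ± 0.364 CPM in DMSO (0.43 ± 0.11, adjusted p = 0.0344). With the GC and length trend removed neither was called, and PFKL was at 0.27 and ENO2 at 0.25, while 1 other gene of the chain was then called lower. ENO2 also lost its call with scaling by library size alone, at 0.38, and with no filter on low counts, at 0.42. The chain's count of 2 became 8 without EZA replicate 3, 6 higher and 2 lower (3 higher and 5 lower with the trend also removed), and 1 when EZA replicate 1 or 2 or DMSO replicate 2 was left out. It was 0 without DMSO replicate 1 or 3, where 4 genes had an unadjusted p below 0.05.

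At the end of the pathway, transcripts of the main lactate dehydrogenase subunit were lower. Of 20 tested genes of pyruvate and lactate handling 2 fell and 1 rose (15%, near the 17.7% of all genes), with a median log2 fold change of -0.20. LDHA, which reduces pyruvate to lactate, fell to 567 ± 79.0 CPM in EZA, against 1033 ± 73.6 CPM in DMSO (SD, n = 3 each; log2 fold change -0.87 ± 0.15, edgeR adjusted p = 0.0102). SLC16A7, the monocarboxylate transporter MCT2, fell to 3.36 ± 0.295 CPM in EZA, against 9.05 ± 0.622 CPM in DMSO (-1.42 ± 0.18, adjusted p = 0.0032). LDHD, a mitochondrial D-lactate dehydrogenase, rose to 3.71 ± 0.278 CPM in EZA, against 1.97 ± 0.436 CPM in DMSO (0.91 ± 0.24, adjusted p = 0.0358). SLC16A7 was called with each library left out in turn, and was at -0.95 after removal of the trend. The call of LDHA was lost without DMSO replicate 1 or 3. That of LDHD was lost without any library except EZA replicate 3, and also after removal of the trend, at 0.47. The 3 calls became 1 without DMSO replicate 1 or 3, and 8 without EZA replicate 3, 2 higher and 6 lower.

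The list of side branches joined routes from glucose 6-phosphate (pentose phosphate, glycogen and hexosamine) with gluconeogenic enzymes. In it, the gluconeogenic gene PCK2, H6PD and genes of the pentose phosphate pathway rose. Of 28 tested genes 7 rose and 3 fell (35.7%, against 17.7% of all genes), with a median log2 fold change of 0.17. The list was drawn up with earlier results of these data known, so nothing is read from this share. PCK2, the mitochondrial enzyme that makes phosphoenolpyruvate, rose to 190.5 ± 34.6 CPM in EZA, against 46.2 ± 3.45 CPM in DMSO (SD, n = 3 each; log2 fold change 2.04 ± 0.16, edgeR adjusted p = 0.00032). H6PD, which oxidises glucose 6-phosphate in the endoplasmic reticulum, rose to 37.4 ± 2.57 CPM in EZA, against 15.2 ± 0.468 CPM in DMSO (1.30 ± 0.13, adjusted p = 0.00108). PGLS, an early enzyme of the cytosolic pentose phosphate pathway, rose to 55.1 ± 7.48 CPM in EZA, against 24.2 ± 1.47 CPM in DMSO (1.19 ± 0.15, adjusted p = 0.00314). TALDO1 of the same pathway, PYGB, a glycogen phosphorylase, and PGD, which follows PGLS, rose by 0.80 ± 0.14, 0.72 ± 0.13 and 0.56 ± 0.12 (edgeR adjusted p = 0.0101, 0.011 and 0.0177). PYGB overlaps ABHD12 on the opposite strand, with 12385 counts against 22373 of PYGB. UGP2 and GBE1, of glycogen synthesis, and PGM2, a phosphopentomutase, fell, with log2 fold changes of -0.54 ± 0.14, -0.48 ± 0.13 and -0.52 ± 0.13 (edgeR adjusted p = 0.0309, 0.0352 and 0.029). PCK2, H6PD and PGLS were called with each library left out in turn. After removal of the trend PGLS was at 0.78 and PYGB at 0.47, both still called. The GC and length trend, when removed, ended the calls of UGP2 at -0.24, GBE1 at -0.30 and PGM2 at -0.27. The 10 calls became 3, 5 and 3 without DMSO replicate 1, 2 or 3, and 14 without EZA replicate 3.

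**Figure D4:**
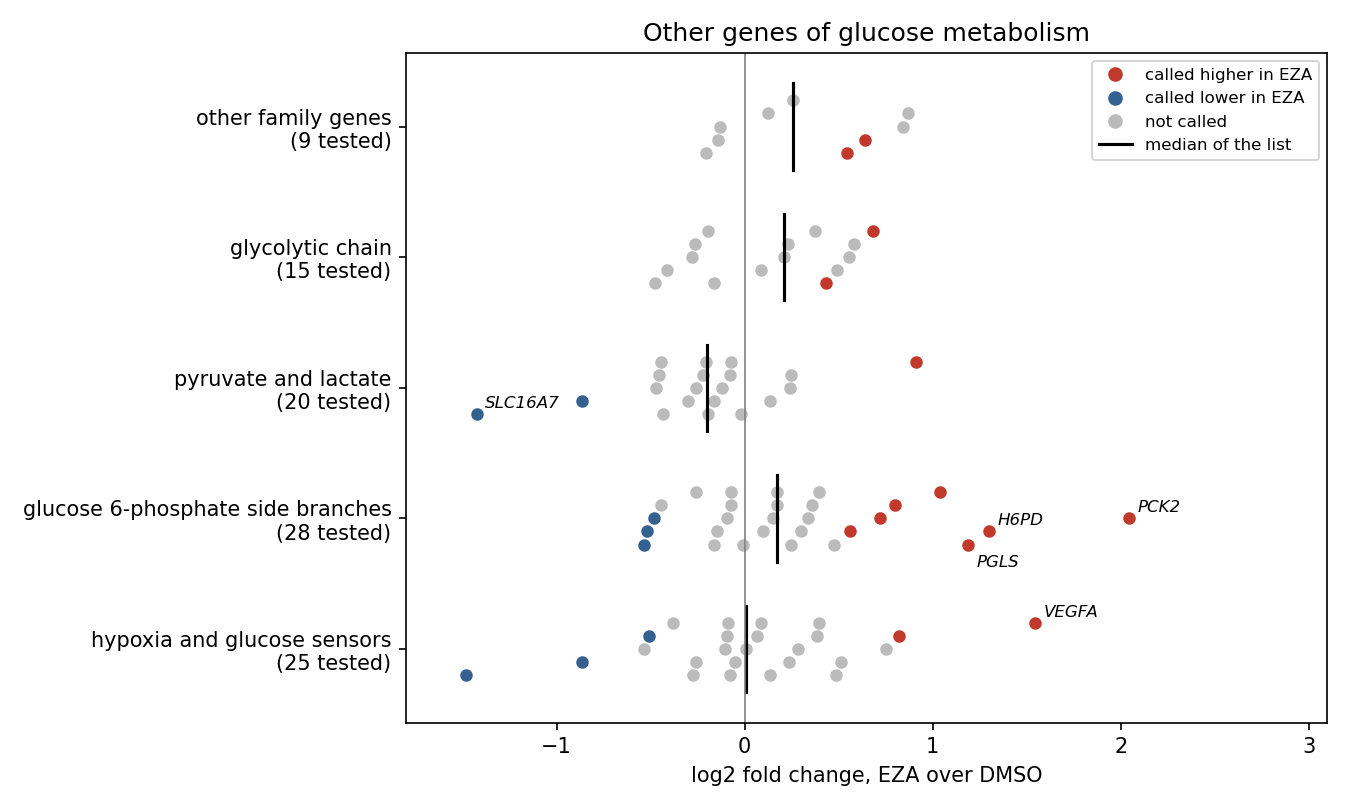
Each point is a tested gene of 1 of 5 lists, placed along the horizontal axis by its log2 fold change (EZA over DMSO), coloured by its call, and a black line for the list's median. The medians lie between -0.20 and 0.26, and the labelled points are the genes called with each library left out in turn, PCK2, H6PD, PGLS, VEGFA and SLC16A7.

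Among the hypoxia and glucose sensors and their targets, VEGFA and TXNIP rose and HIF1A, EGLN1 and LOX fell. These 5 were 20% of 25 tested genes, near the 17.7% of all genes, with a median log2 fold change of 0.01. VEGFA, an angiogenic growth factor, rose to 91.4 ± 15.9 CPM in EZA, against 31.3 ± 2.12 CPM in DMSO (SD, n = 3 each; log2 fold change 1.55 ± 0.16, edgeR adjusted p = 0.00108). TXNIP, an arrestin-like inhibitor of glucose uptake, rose to 44.3 ± 5.29 CPM in EZA, against 25.1 ± 0.822 CPM in DMSO (0.82 ± 0.14, adjusted p = 0.00881). HIF1A, the oxygen-regulated subunit of HIF-1, fell to 52.9 ± 7.29 CPM in EZA, against 96.6 ± 13.8 CPM in DMSO (-0.87 ± 0.16, adjusted p = 0.0113). HIF1A was at -0.52 after removal of the trend and at -0.42 with EZA replicate 3 also left out, still called in both. EGLN1, the prolyl hydroxylase that marks it for degradation, and LOX, lysyl oxidase, fell with log2 fold changes of -0.51 ± 0.13 and -1.48 ± 0.33 (edgeR adjusted p = 0.0285 and 0.0212). LOX overlaps SRFBP1 on the opposite strand, which had 7932 counts in all libraries against 154 of LOX. VEGFA was called with each library left out in turn. The 5 calls of this list became 1 without DMSO replicate 1 or 3 and 11 without EZA replicate 3, 7 higher and 4 lower.

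Across the 5 lists 22 genes were called, and 5 of these kept the call with each library left out in turn, namely SLC16A7, H6PD, PGLS, PCK2 and VEGFA. The other 17 lost it without at least 1 library, most often a DMSO library. SLC2A8 lost it without EZA replicate 2 and SLC2A10 without EZA replicate 1, both also without each DMSO library. PFKL, TALDO1, PYGB, HIF1A and TXNIP lost it without DMSO replicate 1 or 3, and PGD without each DMSO library. ENO2, UGP2, GBE1 and EGLN1 kept it only when EZA replicate 3 was the library left out, PGM2 lost it without EZA replicate 1 or a DMSO library, and LOX without EZA replicate 2, DMSO replicate 1 or DMSO replicate 3.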

How the data were processed

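Poly(A) RNA libraries without strand information were made from RKO cells, per the labels' protocols. Per the submitters' processing notes, the build was GRCh38, and HISAT2, featureCounts, FastQC and DESeq2 were among the tools. Versions and annotation were not given in the sources used here. What the authors deposited is a table of whole read counts and FPKM values by Ensembl gene. The ratio of those counts to the FPKM followed a factor per gene and a factor per library, to within a relative deviation of 5.31e-09. The library factors were not the plain count totals. Relative to DMSO replicate 1, that of EZA replicate 1 was 0.981, although EZA replicate 1 held 16054218 counts against 15778418 in DMSO replicate 1.

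The 8 genes, the gene lists, the motifs and the alternatives were chosen with earlier results of these data known. Sample titles gave the group and replicate of each library. After filterByExpr and TMM scaling, edgeR's quasi-likelihood test (robust, two-sided, no covariates) compared the groups, with Benjamini-Hochberg adjustment over 13503 genes and a threshold of 0.05. Standard errors follow from the log2 fold change and F. CPM are TMM-scaled, and FPKM were used as deposited to compare levels between genes. No pair of replicates agreed within sampling noise (chi-square over its degrees of freedom 14.4 to 129 in EZA and 5.14 to 13.3 in DMSO). Positions, GC content and the longest transcript came from GENCODE 44, and promoter sequences from RefSeq (GRCh38.p14). For lists, up to 4 called genes in each direction, called genes changed at least 2-fold and all tested family genes were named by rule, except a gene that is not reported here; PYGB and PGD complete a list and DDX21 was chosen after its values were seen. As alternatives, scaling and filter were varied, DESeq2 and limma-voom were run, and fits used the replicate number as a block, removal of the GC and length trend (lowess, span 0.3) or each library left out in turn. The edgeR test and the trend removal were tested on simulated data. At a dispersion of 0.03 for every gene, the test recovered 82.7% of 2-fold and 100% of 4-fold changes, with 10 false calls. No simulated library was set apart as EZA replicate 3 is, so these shares do not carry over to the real libraries. Counts of overlapping or near-identical genes are uncertain. Tools were edgeR 4.0.16, DESeq2 1.42.0 and limma 3.58.1 in R 4.3.3, with Python 3.11.15 and BLAST 2.17.0.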

Additional observations from a re-analysis of the deposited data

How the results depend on the processing

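Across 17 alternatives, HKDC1, PFKFB2 and SLC2A3 stayed higher and PFKFB4 and SLC2A1 lower in EZA, while HK1 kept its sign in 16, HK2 in 14 and PFKFB3 in 13. With each library left out in turn, the log2 fold changes ran from 4.99 to 6.36 for HKDC1, 0.63 to 0.80 for PFKFB2, 0.38 to 0.50 for SLC2A3, -0.57 to -0.45 for PFKFB4, -0.29 to -0.05 for SLC2A1, 0.03 to 0.23 for HK1, -0.42 to 0.20 for HK2 and -0.16 to 0.20 for PFKFB3. Over the same settings the calls ran from 220 to 5289 for all genes, 0 to 4 for the other family genes, 0 to 8 for the glycolytic chain, 1 to 8 for pyruvate and lactate, 3 to 14 for the side branches and 1 to 11 for the hypoxia and glucose sensors. The cause was not tested. All 22 called genes of the lists kept their sign in every alternative.

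Scaling by library size alone left 1 call in the other family genes and 1 in the glycolytic chain. Without a filter on low counts there were 5 calls in pyruvate and lactate and 8 in the sensors, and DESeq2 made 4 in the glycolytic chain. Removal of the GC and length trend left 1581 calls, 0 in the other family genes (5 at an unadjusted p below 0.05 in edgeR), 1 in the glycolytic chain (0 higher and 1 lower, against 2 higher) and 8 in the sensors (4 higher and 4 lower), with PFKFB2 at 0.93, PFKFB4 at -0.73 and SLC2A3 at 0.53. With EZA replicate 3 also left out there were 5328 calls, and 4, 8, 9, 20 and 16 in the family, chain, pyruvate, side branch and sensor lists, with HK1 at -0.073, PFKFB3 at -0.31, PFKFB4 at -0.77 and SLC2A3 at 0.55.

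Same-numbered libraries did not deviate together, with correlations of 0.0327, -0.175 and 0.0266 for replicates 1 to 3, and not every library correlated best with its own number. With 3 libraries per group and EZA replicate 3 apart from the others, these values cannot settle whether the numbers pair the samples. The labels do not say so either. The replicate block gave 1970 calls against 2392 without it, and 1 in the glycolytic chain. SLC2A8, ENO2, LDHD, PGM2, UGP2, GBE1 and EGLN1 lost their calls under it, which left 7 higher and 0 lower in the side branches. The replicate block with the trend removed gave 645 calls, 0 in the other family genes and 0 in the glycolytic chain (5 and 3 at an unadjusted p below 0.05 in edgeR), 4 in the side branches and 2 in the sensors, with PFKFB2 at 0.92, PFKFB4 at -0.73 and SLC2A3 at 0.54. HIF1A, LOX, PGD, TALDO1 and PYGB were among the genes that lost their calls there. PFKFB4 lost its call there and under the block alone, which left HKDC1 and PFKFB2 as the 2 called of the 8 genes. With DESeq2, or with the trend removed and no block, SLC2A3 was called beside HKDC1, PFKFB2 and PFKFB4. HKDC1 rests on 8 counts in DMSO, which limits how well its fold change is known.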
